A study of Mus musculus with 12 samples.

Results

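The endothelin genes examined here are the 3 ligands Edn1, Edn2 and Edn3, the 2 receptors Ednra and Ednrb and the 2 converting enzymes Ece1 and Ece2. They were picked by symbol from the 54146 genes counted in whole retinas of 12 mice, all 7 were found, and all 7 passed the filter on low counts that left 18628 genes for testing. Retinas came from 3 control mice at P30 (mice 1 to 3) and from 3 photoreceptor (PR)-specific Otx2 knock-out (cKO) mice each at P32 (mice 4 to 6), P34 (7 to 9) and P38 (10 to 12), 1 library per mouse. The cKO mice carried Crx-CreERT2 and Otx2 flox/flox on a 129/SV background and were killed 2, 4 and 8 d after 1 tamoxifen injection at P30. The P30 mice are labelled only as control, with Crx in their source name, and the study's methods place them at day 0 of tamoxifen. Crx drives the Cre in PRs, so Otx2 stays intact in RPE and bipolar cells of the same retina, and age, tamoxifen and the deletion cannot be told apart in any comparison with P30.

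Endothelins are short peptides first found as vasoconstrictors made by blood vessel walls. Each is cut from a larger precursor, first by furin-type proteases to an inactive big endothelin and then by an endothelin-converting enzyme to the active peptide. The peptides act on G protein-coupled receptors. The A receptor, encoded by Ednra, binds the products of Edn1 and Edn2 more tightly than that of Edn3 and sits largely on vascular smooth muscle, while the B receptor, encoded by Ednrb, binds all of them alike. Edn3 and Ednrb are best known for the development of melanocytes and enteric neurons from the neural crest. In the retina, Edn2 is known as a signal that PRs make when damaged and that reaches Ednrb on Müller glia and astrocytes.

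The stretches that encode the mature ligands are shown because the likeness of the peptides is what lets them share receptors, while the reads that count each gene come from the whole of its exons. They were read 5′ to 3′ from the GENCODE M21 transcripts of GRCm38, with the codons of the 4 conserved cysteines, which form the bridges of the peptide, in capitals. All lie in exon 2 of 5, on the plus strand, at chr13:42303649-42303711 (Edn1), chr4:120161951-120162013 (Edn2) and chr2:174761749-174761811 (Edn3).
Edn1: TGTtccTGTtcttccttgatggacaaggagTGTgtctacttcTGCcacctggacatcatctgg
Edn2: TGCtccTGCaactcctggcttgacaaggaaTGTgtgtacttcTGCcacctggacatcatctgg
Edn3: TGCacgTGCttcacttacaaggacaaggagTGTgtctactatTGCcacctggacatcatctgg
Over these 63 bases Edn1 and Edn2 were identical at 53 positions (84.1%), Edn1 and Edn3 at 50 (79.4%) and Edn2 and Edn3 at 48 (76.2%). Of the 21 codons, 11 were the same in all 3 genes, and these included all of the last 7. Edn3 therefore differs from the other ligands mainly in the first part of the peptide.

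Library totals ranged from 29701483 to 60145034 counts on genes, so that 3 counts corresponded to 0.0499 to 0.101 CPM, and no endothelin gene fell to that floor in any library. Otx2, the targeted gene, was at 293 to 328 CPM in the P30 mice and 307 to 377 CPM in the cKO mice. These counts cover all of its exons, and Cre removes only 1 coding exon, so they do not check the deletion. Markers of PRs were abundant in all 12 libraries, as the tissue label states: Gnat1, the rod transducin, was at 10635 to 19548 CPM and Sag, the rod arrestin, at 6246 to 12154 CPM. Markers of tissue from the front of the eye were present as well, at unequal levels: the summed level of 8 lens genes ran from 270.3 to 43419 CPM, and that of 6 ciliary body and iris genes from 12.1 to 149 CPM. By Xist and Y-linked genes, all 3 P30 mice were female, while 2, 1 and 1 of the 3 mice at P32, P34 and P38 were, so sex differed between the groups as well. Levels come from whole retina, in which fewer cells of a type and less RNA per cell cannot be told apart.

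Per exon length (CPM per kb of exon), Ece1 had the highest mean level of the 7 genes in each condition. The lowest mean was that of Ednra at P30 and P32 and that of Edn3 at P34. At P38 Edn3 (0.2293) and Ednra (0.2294) were nearly level, and only mouse 11 had Edn3 below Ednra (0.165 against 0.313). On that scale the mean over the 12 libraries was 10.4 ± 1.43 (SD) for Ece1, 2.41 ± 0.760 for Ednrb, 1.98 ± 0.508 for Edn2, 1.26 ± 0.208 for Edn1, 0.652 ± 0.178 for Ece2, 0.455 ± 0.549 for Edn3 and 0.246 ± 0.0547 for Ednra. Ece1 lay above the other 6 genes without overlap. Ednrb and Edn2, the next in order, overlapped in level, with Ednrb the higher in 10 of 12 libraries. Edn2 and Edn1 overlapped too, as did Ece2 with Edn3 and Edn3 with Ednra, while Edn1 and Ece2 did not.

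**Figure D1:**
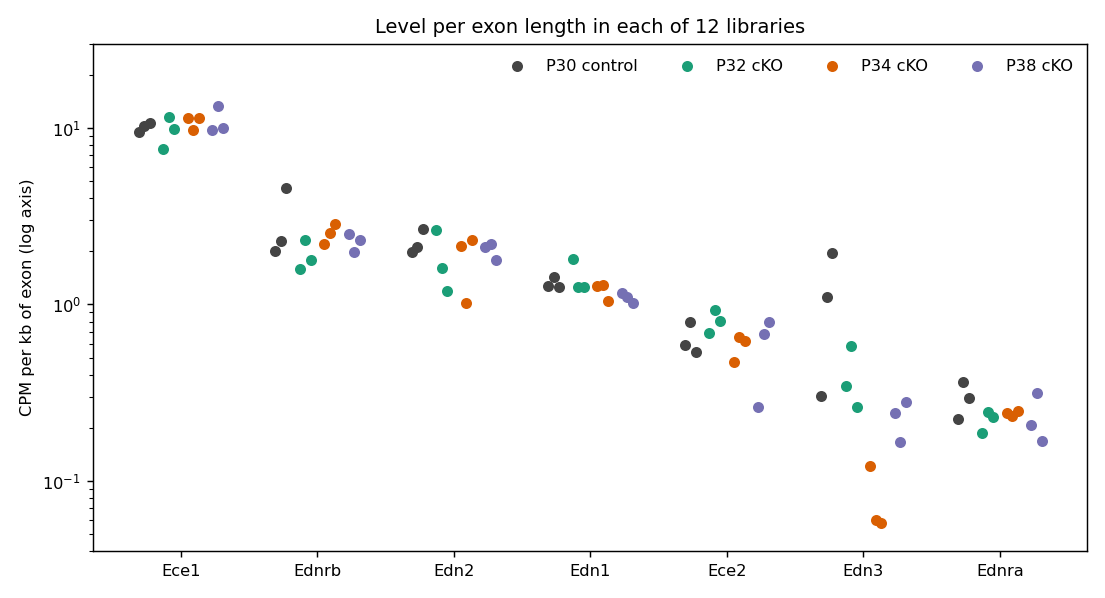
Level of the 7 endothelin genes in each library, in CPM per kb of exon on a log axis, ordered by their mean over 12 libraries; points are single mice, coloured by condition. Ece1 stays between 7.58 and 13.4 throughout, whereas Edn3 spreads from 0.0576 to 1.95.

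Among the ligands, Edn2 had the highest level per exon length in 10 of 12 libraries and Edn1 in the other two (P32 mouse 6 and P34 mouse 8). Edn3 was the lowest of the 3 ligands in 11 of 12, and the exception was P30 mouse 3, where it was above Edn1. The share of Edn3 in the summed level of the ligands per exon length was 8.52, 23.6 and 33.3% in P30 mice 1, 2 and 3, 7.14 to 16.8% at P32, 1.69 to 3.40% at P34 and 4.78 to 9.10% at P38. The level of Ednrb per exon length was 6.29 to 15.6 times that of Ednra across the 12 libraries, and that of Ece1 was 10.9 to 37.3 times that of Ece2. Of the exon bases of Ece2, 57.5% are shared with another gene, which may lower its counts, so its ratio to Ece1 and its place below Edn1 are uncertain. In every library the B receptor and, as counted, the first converting enzyme had the higher level of their pairs.

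Of the 7 endothelin genes, only Edn3 changed, and it fell at P34. Calls were made with edgeR's quasi-likelihood test and required both an adjusted p (Benjamini-Hochberg, all genes tested) no higher than 0.05 and a difference of 0.5 or more on the log2 scale. Across the genes tested, 0.66% fell and none rose by this rule at P34 against P30. Neither P32 nor P38 gave a call for any of the 18628 genes. By unadjusted p-values up to 0.05, Edn3 and Ednrb were lower at P32 (3.09% of all genes tested were), and only Edn3 among the 7 was lower at P34 (7.06%) and at P38 (3.82%). The 9 cKO mice taken as one group against P30 gave no call among the 7 genes, where 0.0537% of all genes fell, and neither did the test for any difference among the 4 conditions, which called 0.344% of all genes. For Edn3 that last test gave an adjusted p of 0.0630 (edgeR).

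**Figure D2:**
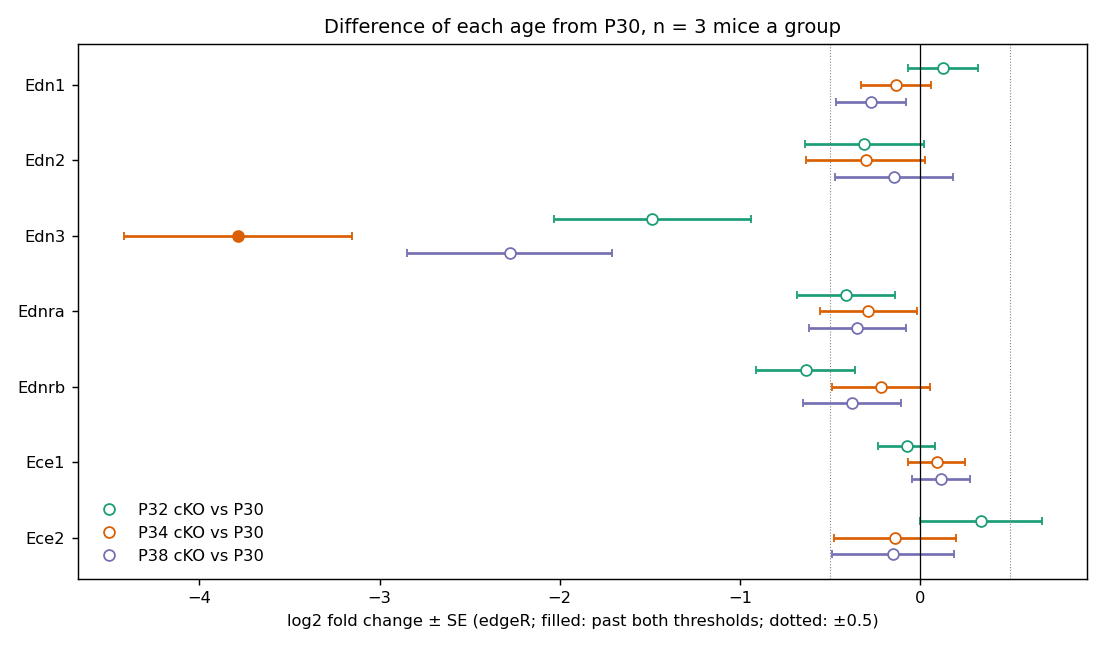
log2 fold change of each endothelin gene at P32, P34 and P38 against P30 with its SE (edgeR, 3 mice a group); a filled point passed both thresholds and the dotted lines stand at ±0.5. Edn3 at P34 (-3.79) is the only filled point, and the 6 other genes lie between -0.64 and 0.34.

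Edn3 (ENSMUSG00000027524, chromosome 2 of GRCm38 from 174760619 to 174784042, plus strand) encodes the ligand that prefers the B receptor. P30 mice 1, 2 and 3 had 1.25, 4.50 and 8.02 CPM of Edn3, from 79, 223 and 270 counts. At P32 it was at 1.41, 2.38 and 1.08 CPM in mice 4, 5 and 6 (47, 92 and 44 counts). P30 mice 2 and 3 stood above all other mice, while P30 mouse 1 lay among the P32 values. At P34 it was at 0.497, 0.245 and 0.237 CPM in mice 7, 8 and 9, from 18, 10 and 7 counts, and at P38 at 0.995, 0.680 and 1.15 CPM in mice 10, 11 and 12, from 41, 29 and 34 counts. All P34 mice and all P38 mice were below all P30 mice, and no P34 mouse overlapped a P32 or a P38 mouse.

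The group means of Edn3 were 4.59 ± 3.39 CPM at P30, 1.62 ± 0.673 at P32, 0.326 ± 0.148 at P34 and 0.943 ± 0.241 at P38 (SD, n = 3 mice each). At P34 it was 13.8-fold lower than at P30 (log2 fold change -3.79, SE 0.63, edgeR adjusted p = 0.0184). At P32 the log2 fold change was -1.49 (SE 0.55, edgeR adjusted p = 0.698), and at P38 it was -2.28 (SE 0.57, edgeR adjusted p = 0.652). Neither passed the threshold in edgeR. Leaving out each mouse in turn gave -1.94 to -0.82 at P32 and -2.73 to -1.61 at P38, the ends being the fits without P30 mouse 1 and without P30 mouse 3, and none of these passed either. DESeq2 called the difference at P38 as well (adjusted p = 0.0299), as it did for 0.183% of all genes in this direction. Of all genes tested, 9.67% lay lower at P34 and 7.96% at P38 in all mice than in every P30 mouse, so that separation by itself is not rare in these libraries.

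Between the cKO ages, Edn3 differed by -2.30 on the log2 scale from P32 to P34 (SE 0.63, edgeR adjusted p = 0.0949), a comparison in which 0.242% of all genes were called lower. From P34 to P38 it differed by 1.51 (SE 0.64, edgeR adjusted p = 0.901), where 0.199% of all genes were called higher. These differences did not pass the threshold in edgeR, although the 3 mice of each age did not overlap (13.6% of genes lay lower in this way from P32 to P34, and 5.36% higher from P34 to P38). DESeq2 called that from P32 to P34 (adjusted p = 0.00612), where it called 4.53% of all genes lower. The lowest Edn3 level was thus at 4 d after tamoxifen, with the values at 8 d between those at 4 d and at 2 d in order of the means.

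**Figure D3:**
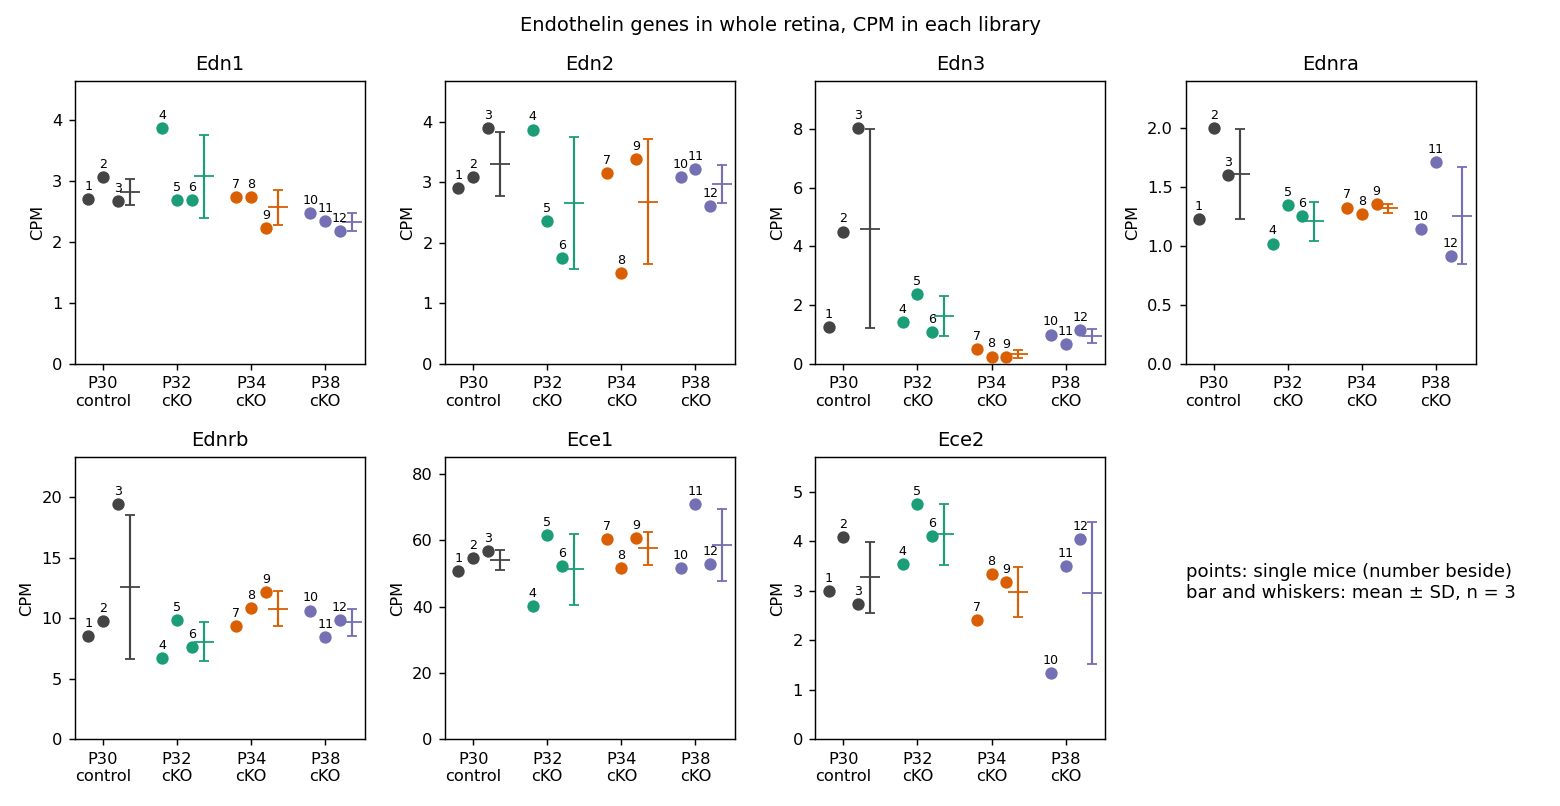
CPM of each endothelin gene in each mouse (points, with the mouse number) and mean ± SD of 3 mice per condition. P30 mice 2 and 3 stand high for Edn3 at 4.50 and 8.02 CPM, P30 mouse 3 stands high for Ednrb at 19.5 CPM, and the other genes overlap between most conditions.

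The call for Edn3 at P34 depended on which mice entered the fit, P30 controls and P34 mice alike, and on whether sex was a covariate. A figure legend of the study gives 2 control mice at P30, while its methods give 3. P30 mice 2 and 3 were both above all 10 other mice for Edn3, as for 2% of all genes tested, and none of the other 6 endothelin genes showed this. With P30 mouse 1 as the only control, an analysis chosen after seeing the data in which that mouse is assumed to vary like the other groups, Edn3 at P34 had a log2 fold change of -1.91 (SE 0.53, edgeR adjusted p = 0.693), and at P32 the direction turned to 0.38. Leaving out P30 mouse 2 gave -3.79 (edgeR adjusted p = 0.0557), leaving out P30 mouse 3 gave -3.13 (0.0553 by the same test), and leaving out P30 mouse 1 gave -4.24 (0.00127). Without P34 mouse 7, 8 or 9 in turn it was -4.23, -3.60 and -3.64, with edgeR adjusted p-values of 0.0694, 0.130 and 0.128. With sex as a covariate the log2 fold change was -3.67 (edgeR adjusted p = 0.0581), and among female mice alone, where the 1 mouse at P34 is assumed to vary like the other groups, it was -4.22 (edgeR adjusted p = 0.533). The direction at P34 was negative in all of these fits.

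**Figure D4:**
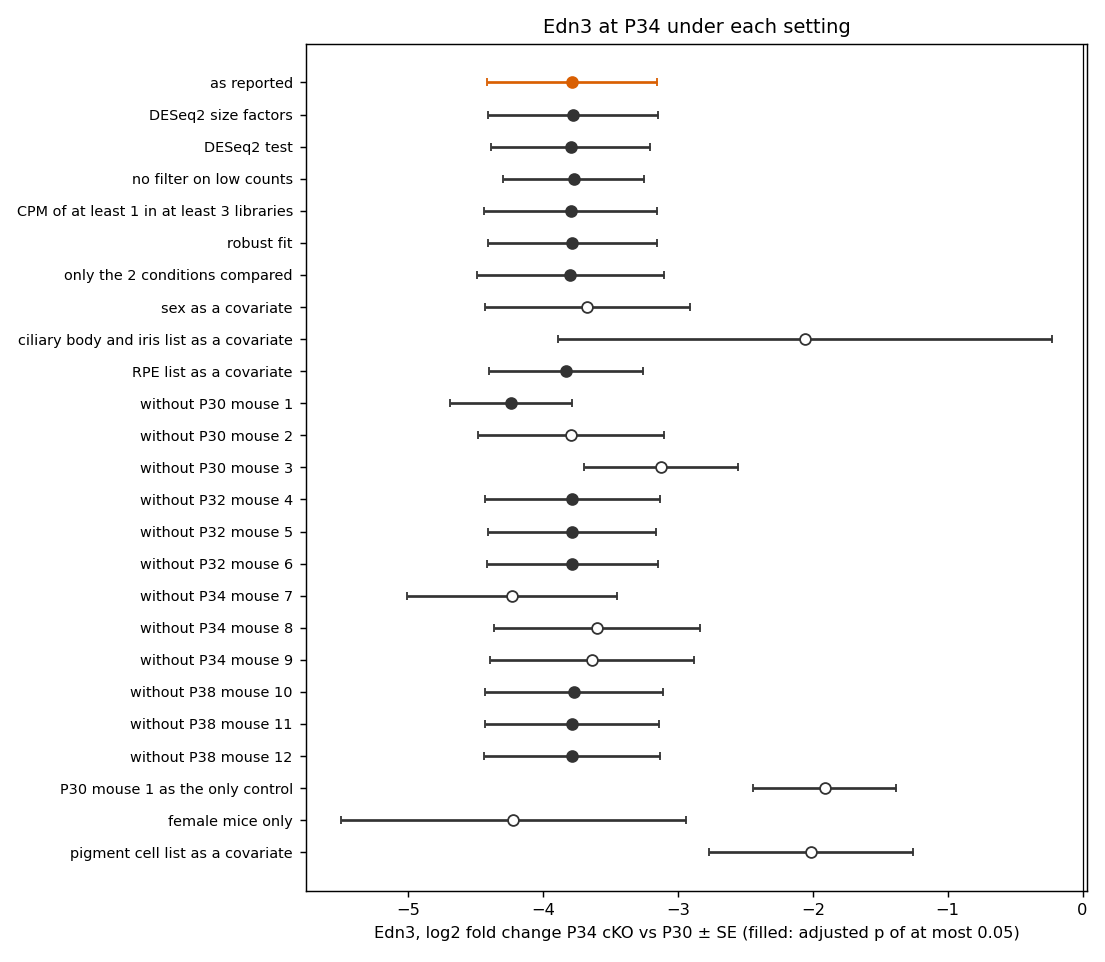
log2 fold change of Edn3 at P34 against P30 with its SE in the fit as reported and under each other setting, in which mouse numbers name the mouse left out; filled points have an adjusted p of at most 0.05. All values are negative, from -4.24 to -1.91, and the open points are those without P30 mouse 2 or 3, without any P34 mouse, with sex, the pigment list or the ciliary list as a covariate, with female mice only and with P30 mouse 1 as the only control.

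Pigment cell and contractile smooth muscle markers were high in the same P30 mice as Edn3. Pigment cell markers, 9 genes of melanin synthesis and melanosomes, summed to 122, 846 and 693 CPM in P30 mice 1, 2 and 3 and to 32.1 to 138 CPM in the 9 cKO mice. Smooth muscle and pericyte markers (11 genes) summed to 95.5, 266 and 270.2 CPM in the same P30 mice and to 66.2 to 112 CPM in the cKO mice. P30 mice 2 and 3, which had the most Edn3, also had the most of both lists. The contractile genes Acta2, Myh11, Tagln and Myl9 made up most of that difference. Pericyte members of the list differed less. Pdgfrb, a growth factor receptor of pericytes, was at 18.5, 17.2 and 18.5 CPM in P30 mice 1, 2 and 3 and at 13.3 to 21.6 CPM in the cKO mice. Abcc9, a potassium channel subunit gene, was at 3.99, 6.68 and 6.78 CPM in these P30 mice and at 2.58 to 10.1 CPM in the cKO mice, and Rgs5, Kcnj8 and Cspg4 were likewise lowest in mouse 1 of the P30 mice. Myh11, the myosin heavy chain of smooth muscle, was at 2.65, 46.7 and 53.2 CPM in P30 mice 1, 2 and 3 and at 0.863 to 3.07 CPM in the cKO mice. Tyr, the tyrosinase of melanin synthesis, was at 4.97, 27.4 and 26.9 CPM in P30 mice 1, 2 and 3.

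Ciliary body and iris markers (6 genes) followed the second feature of Edn3, its low point at P34. Their sum was lowest at P34, at 12.1 to 18.4 CPM, against 124 to 140.2 CPM at P30, 58.5 to 149 CPM at P32 and 57.4 to 105 CPM at P38. The P34 mice were below all other mice for this sum as they were for Edn3. At P34, 5 of the 6 genes fell in edgeR, among them Optc, which encodes the extracellular matrix protein opticin (log2 fold change -4.84, SE 0.42), and Best2, a chloride channel gene of the ciliary epithelium (-5.95, SE 0.61). Of the smooth muscle list, 4 of 10 tested genes fell at P34 (Acta2, Myh11, Tagln and Myl9, -4.73 to -2.06), and of the pigment list 2 of 9 did (Mlana at -4.42 and Tyrp1 at -3.73). DESeq2, by which 1.89% of all genes fell at P34, called 6 of 6 ciliary, 4 of 10 smooth muscle and 7 of 9 pigment genes lower, and 7 of 8 lens genes, none of which edgeR called (median log2 fold change of the lens list -5.02 in edgeR). Lens markers were at 270.3 to 724 CPM in sum at P34 and were as low as 509 CPM in P30 mouse 2 and 717 CPM in P32 mouse 6, so their low libraries were not all at P34. Within P30, neither the ciliary sum (140.2, 124 and 137 CPM in mice 1, 2 and 3) nor the lens sum (10928, 509 and 37971 CPM) had the order of Edn3, and the pigment sum, highest in mouse 2, did not have it in full. The smooth muscle and pericyte sum did, with mice 2 and 3 close to each other. Each gene of the pigment, ciliary and lens lists had counts in every library. With P30 mouse 1 as the only control, 2 genes of the ciliary list and none of the pigment or smooth muscle lists were called at P34, where 26 of 19814 genes were called lower.

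With the mean of the ciliary list as a covariate, Edn3 at P34 had a log2 fold change of -2.06 (SE 1.83, edgeR adjusted p = 0.663), and with the mean of the pigment list, chosen after seeing the data, it had -2.01 (SE 0.76, edgeR adjusted p = 0.9998). With that of the RPE list it remained called. Summed RPE markers themselves ranged over 93.5 to 267 CPM at P30 and 103 to 262 CPM in the cKO mice, with 0 of 8 genes called at any age. The SE with the ciliary list was 1.83 against 0.63 without it. A difference in Edn3 within retinal cells and a difference in the amount of tissue that carries these markers cannot be told apart here. Edn3, every gene of the ciliary list and several of the pigment and smooth muscle lists were also chosen by the study from these libraries as genes that fell, so their fall here is not independent evidence. For Edn3 the study lists a fall at both P34 and P38.

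**Figure D5:**
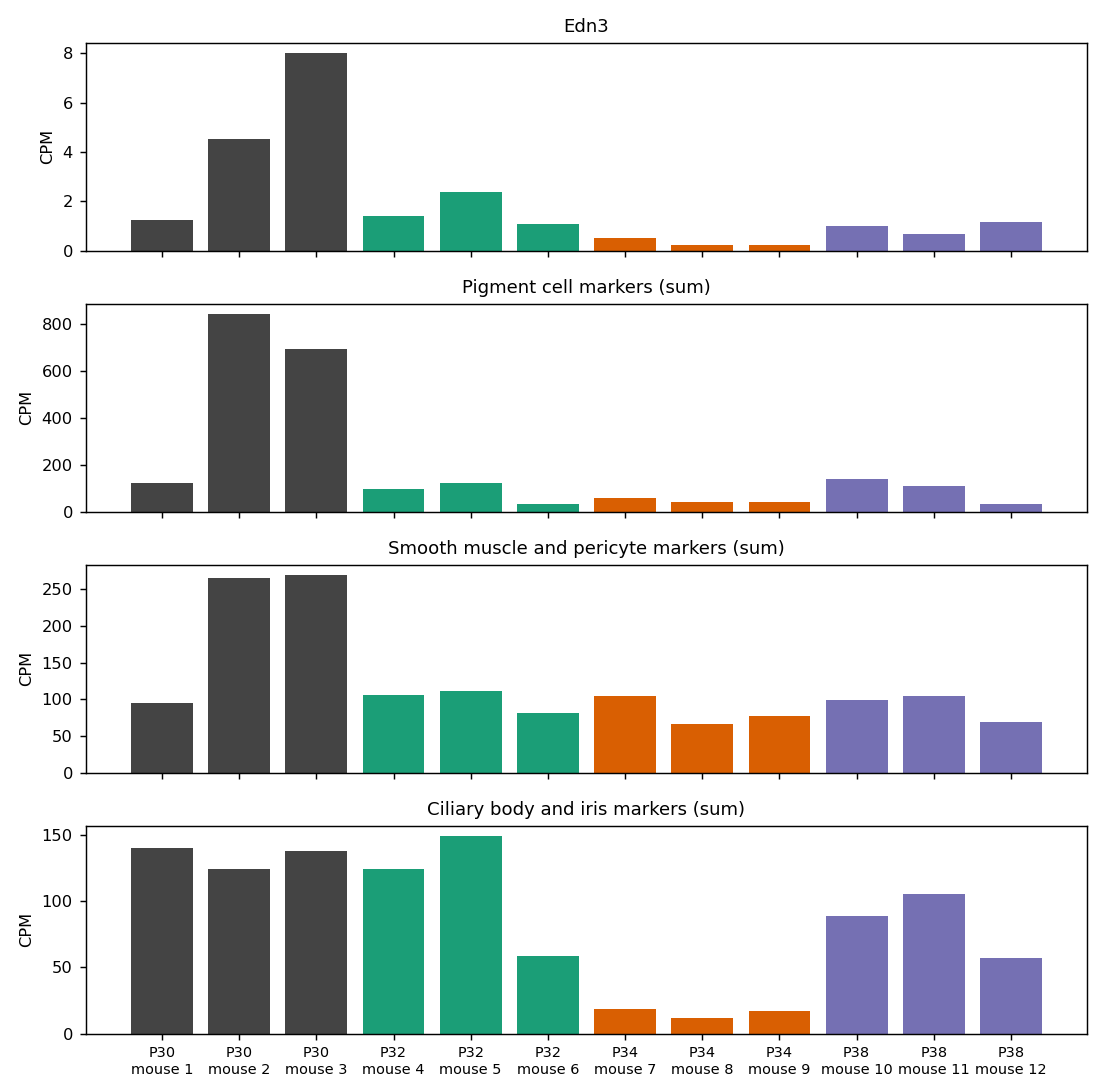
CPM of Edn3 and summed CPM of pigment cell, smooth muscle and pericyte, and ciliary body and iris markers in each of 12 libraries (bars from 0, coloured by condition). P30 mice 2 and 3 are high for the upper 3 panels, and P34 mice 7 to 9 are lowest in the panels of Edn3 and of ciliary body and iris markers.

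Among the 8 genes whose log2 CPM profiles over the 12 libraries, each centred on its own mean, lay closest to that of Edn3 were Slc38a8, Gjb6, Angptl2, Bace2, Gli1, Mrc2 and Gpx3, with root-mean-square differences of 0.49 to 0.62. These points share libraries and depth, so the likeness is a description. At P34 Gjb6 (0 to 0.0490 CPM) and Gli1 (0.0245 to 0.0677 CPM) were below the floor of 3 counts, so depth limits their likeness there. Slc38a8, an amino acid transporter, was closest, at 1.53, 4.99 and 4.34 CPM in P30 mice 1, 2 and 3 and at 0.339 to 0.773 CPM at P34. Bace2, a protease that cuts the melanosomal protein PMEL, was at 5.63, 14.7 and 14.9 CPM in the P30 mice and at 1.18 to 2.13 CPM at P34. The most abundant of those named was Gpx3, a secreted glutathione peroxidase, at 61.4 to 94.1 CPM at P30 and 6.15 to 9.69 CPM at P34.

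Edn1 (ENSMUSG00000021367, chromosome 13 from 42301476 to 42307990, plus strand), the classical endothelial ligand, was not called in any comparison. It was at 2.71, 3.07 and 2.67 CPM in the P30 mice, 3.87, 2.69 and 2.69 at P32, 2.73, 2.74 and 2.23 at P34, with 2.47, 2.35 and 2.17 at P38. All 3 P38 mice were below all P30 mice, as 7.96% of genes were, and below all P32 mice, as 13.2% of genes were. The log2 fold change at P38 against P30 was -0.27 (SE 0.20, edgeR adjusted p = 0.847). Endothelial markers, which could carry Edn1, summed to 316 to 349.7 CPM at P30 and 259 to 399 CPM in the cKO mice, and 0 of 10 were called at any age (edgeR and DESeq2), with none at an unadjusted p of at most 0.05 against P30. At P38, 8 of the 10 had negative log2 fold changes against P30 (median -0.24, beside -0.0091 for all genes tested), and Kdr, the most abundant of them, did not (0.056). Pecam1 was at 5.46 to 8.34 CPM, Cdh5 at 1.74 to 4.25 and Kdr at 147 to 274 across the 12 libraries.

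Edn2 (ENSMUSG00000028635, chromosome 4 from 120161206 to 120167360, plus strand), the ligand associated with PR damage, showed no difference larger than the spread between mice. It was at 2.90, 3.09 and 3.89 CPM at P30, 3.87, 2.35 and 1.75 at P32, 3.15, 1.49 and 3.39 at P34, with 3.08, 3.21 and 2.61 at P38. The lowest cKO mouse was P34 mouse 8 and the highest P32 mouse 4, and all 3 cKO ages overlapped P30. Against P30 the log2 fold changes were -0.31 (SE 0.33) at P32, -0.30 (SE 0.33) at P34 and -0.14 (SE 0.33) at P38, with edgeR adjusted p-values of 0.751, 0.801 and 0.959. Its closest profiles were those of Ckap2, a cytoskeleton-associated protein (root-mean-square difference 0.18), Serpinf1, a secreted serpin of the RPE (0.20), and Gm6944 (0.22).

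No gene of the damage response that Edn2 is known to take part in was called. Of 14 listed genes of PR stress and the Müller glia response, 13 were tested and none was called at any age in edgeR or DESeq2. At an unadjusted p of at most 0.05, 1 was lower at P32 (3.09% of all genes) and 1 at P34 (7.06%), the latter Cp, which encodes ceruloplasmin (log2 fold change -0.48), and none passed at P38. The medians of their log2 fold changes were -0.15, -0.16 and 0.032 for P32, P34 and P38, beside -0.0088, -0.0013 and -0.0091 for all genes tested. Lif, the cytokine that induces Edn2 in damaged retina, was at 0.394 to 0.525 CPM at P30 and 0.218 to 0.724 CPM in the cKO mice. Gfap, the intermediate filament of reactive glia, was at 20.2, 20.1 and 45.1 CPM in P30 mice 1, 2 and 3 and at 15.1 to 49.1 CPM in the cKO mice. The study reports more GFAP protein in Müller cells of cKO mice, by staining at ages later than P38. These RNA values are another measure at earlier ages and do not bear on that result.

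Ednra (ENSMUSG00000031616, chromosome 8 from 77663031 to 77724464, minus strand), the A receptor, was at 1.23, 2.00 and 1.60 CPM at P30, 1.02, 1.34 and 1.26 at P32, 1.33, 1.27 and 1.35 at P34, with 1.14, 1.71 and 0.917 at P38. Each cKO age overlapped P30. The log2 fold changes against P30 were -0.41 (SE 0.27) at P32, -0.29 (SE 0.27) at P34 and -0.35 (SE 0.27) at P38, with edgeR adjusted p-values of 0.698, 0.751 and 0.856. P30 mice 2 and 3, the ones high in smooth muscle markers, had more Ednra than P30 mouse 1, and with that mouse as the only control the values were -0.023, 0.10 and 0.042. Its closest profiles were those of Spin4 (0.14), Tmem131l (0.17) and Lipa (0.17, the lysosomal acid lipase).

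Ednrb (ENSMUSG00000022122, chromosome 14 from 103814625 to 103844402, minus strand), the B receptor, was set apart by 1 library. It was at 8.58, 9.79 and 19.5 CPM in P30 mice 1, 2 and 3, at 6.75, 9.87 and 7.64 at P32, at 9.36, 10.9 and 12.2 at P34 and at 10.7, 8.47 and 9.88 at P38. P30 mouse 3 was the highest of the 12, and the next highest, P34 mouse 9, was at 12.2 CPM. Against P30 the log2 fold changes were -0.64 (SE 0.27, edgeR adjusted p = 0.698) at P32, -0.22 (SE 0.27, edgeR adjusted p = 0.833) at P34 and -0.38 (SE 0.27, edgeR adjusted p = 0.849) at P38. Without P30 mouse 3 they were -0.19 at P32, 0.23 at P34 and 0.070 at P38, so that mouse set the direction at P34 and P38. P30 mouse 3 was also the highest P30 mouse for Edn3, and had the highest summed lens and RPE markers among the P30 mice.

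Fgf2, a growth factor that PRs and Müller glia raise under stress, had the second closest profile to Ednrb (root-mean-square difference 0.23) and was likewise highest in P30 mouse 3, at 24.5 CPM against 12.8 to 19.4 CPM in the other 11 mice. Gm15535 (0.21) and 4632428C04Rik (0.23) were the other two. Markers of Müller glia and astrocytes, cells known to carry Ednrb, summed to 4690 to 4923 CPM at P30, 4636 to 4716 CPM at P32, 4330 to 5036 CPM at P34 and 4394 to 4426 CPM at P38. All P38 mice were below all P30 mice for this sum, as 7.96% of single genes tested were. The sum leans on Glul, which alone had a mean of 2288 CPM at P38. By the mean log2 CPM of the same list, P38 (7.99 to 8.17) overlapped P30 (8.08 to 8.19). No gene of the 8 was called by edgeR or DESeq2, and by unadjusted p-values up to 0.05, 1 was higher and 2 were lower at P34 (3.4% and 7.06% of all genes tested) and 1 was lower at P32 (3.09%). Melanocyte lineage markers, a list of 5 genes that includes Ednrb, summed to 41.5 to 58.4 CPM at P30 and 32.6 to 53.0 CPM in the cKO mice with 0 called. Sox10, which marks melanocytes of neural crest origin, was at 0.367 to 1.34 CPM throughout, highest in P30 mouse 3.

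The proximal promoters of Edn3 and Ednrb are shown because Edn3 fell at P34 and the receptor it prefers was not called. Both were read from RefSeq on GRCm38.p6, 5′ to 3′ in the direction of the gene, from 250 bases before to 50 bases after the start. They were searched on both strands for TAATCC, the core that OTX and CRX homeodomains prefer, and matches are in capitals (GGATTA on the reverse strand).
Edn3, chr2:174760369-174760668, plus strand: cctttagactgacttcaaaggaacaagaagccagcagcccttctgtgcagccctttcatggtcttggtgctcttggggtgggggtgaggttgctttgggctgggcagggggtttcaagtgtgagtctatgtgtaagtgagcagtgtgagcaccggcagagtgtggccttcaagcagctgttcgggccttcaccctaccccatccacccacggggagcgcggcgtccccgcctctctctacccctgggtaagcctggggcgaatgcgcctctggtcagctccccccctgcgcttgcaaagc
Ednrb, chr14:103843652-103843951, minus strand: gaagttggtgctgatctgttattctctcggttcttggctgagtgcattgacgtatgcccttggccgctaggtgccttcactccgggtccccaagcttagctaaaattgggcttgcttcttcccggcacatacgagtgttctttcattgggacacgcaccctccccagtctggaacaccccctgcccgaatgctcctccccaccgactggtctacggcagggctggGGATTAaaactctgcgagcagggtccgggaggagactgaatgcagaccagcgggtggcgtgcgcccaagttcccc
Ednrb had 1 match, 25 bases before the RefSeq start, and the Edn3 window had none. The GENCODE M21 start of Ednrb differs, at 103844402 on the minus strand. The window of Ednrb and its match thus lie inside the gene as GENCODE places it. Of 10 promoters of the 7 genes (4 of them for Ece1), only that of Ednrb held the motif, beside 7.06% of the 32851 promoters in the table. A match is a description of the letters and was not tested for binding, and no data on binding were used here.

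Ece1 (ENSMUSG00000057530, chromosome 4 from 137862237 to 137965229, plus strand), the main endothelin-converting enzyme, had the smallest SD of log2 CPM over the 12 libraries among the 7 genes, while within conditions the SD of Edn1 was smaller (0.19 against 0.21). It was at 50.7, 54.5 and 56.8 CPM at P30, 40.2, 61.4 and 52.2 at P32, 60.2, 51.7 and 60.6 at P34, with 51.6, 70.9 and 53.0 at P38. The groups overlapped at every age. Log2 fold changes against P30 were -0.075, 0.091 and 0.12 at P32, P34 and P38, each with an SE of 0.16 (edgeR adjusted p = 0.877, 0.893 and 0.925). The SD of its log2 CPM over the 12 libraries was 0.20, below the median of 0.27 over all genes tested, and Edn1 (0.22) was the other member below that median. That of Edn3 was 1.43, higher than in 98.5% of genes tested.

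Ece2 (ENSMUSG00000022842, chromosome 16 from 20629828 to 20646485, plus strand), a converting enzyme of acidic compartments in neurons, was at 3.00, 4.08 and 2.73 CPM at P30, 3.54, 4.76 and 4.12 at P32, 2.40, 3.33 and 3.18 at P34, with 1.33, 3.49 and 4.04 at P38. All P34 mice were below all P32 mice, as 13.6% of genes were (log2 fold change -0.48, SE 0.34, edgeR adjusted p = 0.374). Against P30 the log2 fold changes were 0.34, -0.14 and -0.15 at P32, P34 and P38, each with an SE of 0.34 (edgeR adjusted p = 0.739, 0.927 and 0.959). P38 mouse 10 was the lowest of all mice and P34 mouse 7 the next, and these mice also had the smallest shares of reads that fell on no gene, 7.53 and 6.53%, against 8.67 to 13.7% in the other 10. Whether that share has a part in the Ece2 level was not tested. The gene that shares its exons, Gm49333, is a readthrough gene on the same strand and had 0 counts in all libraries. The authors' counting left out reads on more than 1 gene, so Ece2 may be undercounted.

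The profiles closest to that of Ece2 had root-mean-square differences of 0.12 for Tdrd9, 0.15 for Mirg and 0.16 for Inha. Tdrd9, a Tudor domain helicase of the piRNA pathway, was lowest in the same mice as Ece2, at 9.03 CPM in P38 mouse 10 and 14.4 CPM in P34 mouse 7, against 16.3 to 25.3 CPM in the others. Mirg, a non-coding RNA of an imprinted region that hosts microRNAs, was at 2.77 and 4.78 CPM in these mice and at 5.92 to 9.67 CPM elsewhere.

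The enzymes that cut the precursors or break the peptides down were not called at any age. Of 10 listed genes 8 were tested, with median log2 fold changes of -0.036, -0.098 and 0.016 at P32, P34 and P38. Furin, which makes big endothelin, was at 44.4 to 54.7 CPM at P30 and 31.4 to 60.4 CPM in the cKO mice. Mme, which encodes neprilysin, a peptidase that degrades endothelins, varied most: it was at 22.9, 5.79 and 20.1 CPM in P30 mice 1, 2 and 3, 21.5, 24.6 and 2.71 at P32, 2.93, 1.91 and 2.64 at P34, with 45.5, 33.3 and 3.29 at P38. All mice at P34 were below 3 CPM, yet P32 mouse 6 and P38 mouse 12 were close to them. Its log2 fold change at P34 was -2.71 (SE 0.92, edgeR adjusted p = 0.320). Mme is no member and was named after its values were seen.

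No signalling gene downstream of the receptors was called in edgeR. Of 30 listed genes of receptor signalling, among them those of G protein coupling, phospholipase C and protein kinase C, all were tested, and the count of calls was 0 at each age. At an unadjusted p of at most 0.05 against P30, 3 were higher and 2 lower at P34 (3.4% and 7.06% of all genes tested), 1 higher and 1 lower at P32 (2.55% and 3.09%) and 1 higher at P38 (1.82%). By the same measure, 12 were higher and 3 lower from P32 to P34 (13.5% and 13.3% of all genes). From P32 to P38, 11 were higher and 2 lower (12.3% and 10.9%), and from P34 to P38 1 was higher (3.5%). DESeq2 called 1 lower at P34, the inositol trisphosphate receptor gene Itpr3 (log2 fold change -1.11 and SE 0.32 in edgeR, adjusted p = 0.232). Medians of the list on the log2 scale were -0.050, 0.10 and 0.085 at P32, P34 and P38. The remaining marker lists, for blood cells (3 genes), microglia (4) and retinal ganglion cells (5), had 0 genes called against P30 at any age in either tool, and at an unadjusted p of at most 0.05, 4 of the ganglion cell genes were higher at P34 (3.4% of all genes), and at P38 1 ganglion cell and 1 microglia gene were higher (1.82%) and 1 blood gene lower (3.82%).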

How the data were processed

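RNA from whole retinas, RPE included, of 12 mice was measured, 3 per condition. The authors made stranded mRNA libraries, aligned reads to mm10 with STAR 2.5.3a (submitters' processing notes) and deposited read counts per Ensembl gene from HTSeq 0.6.1p1, without normalization. The strand option of the counting is not given in the sources used here. Genes antisense to Edn1, Ednra and Ece1 had at most 13 counts over all libraries.

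From the deposited counts, TMM-scaled CPM (counts scaled to the library total) were computed with edgeR 4.0.16 in R 4.3.3. Genes passing edgeR's filter over the 4 conditions entered 1 quasi-likelihood fit of all 12 mice, and the 9 cKO mice were compared with P30 in a separate fit. Adjusted p-values are Benjamini-Hochberg values over 18628 genes. An SE is the size of the log2 fold change divided by the square root of F. Whether mice shared litters is not given, so p-values measure the spread between these mice. Symbols, positions and exon lengths are from GENCODE M21 (99.9% of 54146 genes named). Libraries of 1 condition differed by more than sampling noise (chi-square per degree of freedom of 19.7 to 254). This sets separate mice against counting noise alone, and pairs from different conditions spanned a similar range (16.4 to 302). The depth gives a floor of 3 counts, 0.0499 to 0.101 CPM, which covers counting error only. The procedure was tested on simulated counts.

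The 7 genes and all lists were chosen with earlier results of these data known. Named beside the 7 genes are up to 5 changed genes of each list, the first 3 genes of a marker list, and, for members whose SD of log2 CPM (prior count 2) exceeded the median, the 3 closest profiles (8 for Edn3, 1 of them not reported here). Other genes named were chosen after their values were seen. Alternatives were DESeq2 1.42.0 (size factors, and its test), no filter, a filter of CPM 1 in 3 libraries, a robust fit, only the conditions compared, covariates, and leaving out each mouse. Protein sequences were not used here.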

Additional observations from a re-analysis of the deposited data

Results flagged for a closer look

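Edn1 in P32 mouse 4 stood apart from the other cKO mice. It was at 3.87 CPM, and the next of the 9 cKO mice was at 2.74 CPM. Its gap to the nearest mouse was 0.664 of the whole range of the 9 mice, above Dixon's 95% critical value for 9 values. That value assumes 1 uniform group, whereas the 9 mice span P32, P34 and P38. Chance flags about 1 in 20 groups, and 7 genes were looked at. The same mouse had the lowest Ece1 (40.2 CPM) and Ednrb (6.75 CPM) of all 12 mice, the highest summed lens markers (43419 CPM) and the largest share of reads without a unique position (32.2%). It was also the only male among the P32 mice. The part of these traits in the Edn1 value was not tested.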

How the results depend on the processing

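The number of endothelin genes changed at P34 was 1 (Edn3) in the fit as reported. It was 0 with sex, the ciliary body and iris list or the pigment cell list as a covariate, with female mice only and with P30 mouse 1 as the only control. With female mice only, P34 and P38 had 1 mouse each, so that fit says little of a lost call. The pigment covariate and both of these choices of mice were added after seeing the data. Of all genes tested, 123 were called lower at P34 as reported and 142 with sex as a covariate. With the ciliary list as a covariate 0 were, and with the pigment list 15. Leaving out each mouse gave 0 to 1 endothelin genes, with 0 without P30 mice 2 or 3 or any P34 mouse. The fits that gave 0 called 43 to 64 of all genes lower. From P32 to P34, DESeq2 and the fit without a filter called 1 gene, Edn3, and leaving out each mouse gave 0 to 1 (1 without P32 mouse 6). These calls came with more calls over all genes, 45 lower and 0 higher as reported, 843 and 579 by DESeq2, 425 and 231 without a filter, and 1310 and 1416 without P32 mouse 6. At P38 against P30, DESeq2 called 1. For any of 4 conditions, DESeq2, no filter and the RPE covariate gave 1, and leaving out each mouse gave 0 to 1 (1 without P30 mouse 1 or P32 mouse 6). The cause of these changes was not tested. In the remaining comparisons and settings the count stayed at 0.

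Of log2 fold changes that turned direction none was past the threshold in either fit. With sex as a covariate Ece2 was 0.14 at P34 and 0.091 at P38. With the ciliary covariate Edn2 was 1.89, Edn1 0.51 and Ednra 0.37 at P34, and Edn2 was 0.050 at P32 and 0.34 at P38. With P30 mouse 1 as the only control, values at P32 were 0.38 for Edn3 and 0.020 for Ece1, at P34 0.10 for Ednra and 0.34 for Ednrb, at P38 0.039 for Edn2, 0.042 for Ednra and 0.18 for Ednrb, and over all cKO mice 0.041 for Ednra and 0.15 for Ednrb. With female mice only they were -0.060 for Edn1 and 0.084 for Ece1 at P32, 0.061 for Edn2 at P34, and -0.013 for Ece1 and 0.32 for Ece2 at P38. With the pigment covariate they were 0.080 for Edn2 and 0.046 for Ece1 at P32, 0.066 for Edn1, 0.24 for Edn2, 0.23 for Ednra and 0.26 for Ednrb at P34, 0.25 for Edn2 and 0.024 for Ednra at P38, and 0.081 for Edn1, 0.17 for Edn2, 0.0055 for Ednra and -0.042 for Ece2 over all cKO mice. Leaving out each mouse gave -0.069 to 0.22 for Edn1 and -0.22 to 0.074 for Ece1 at P32, -0.43 to 0.23 for Ednrb and -0.26 to 0.051 for Ece2 at P34, -0.59 to 0.070 for Ednrb, -0.047 to 0.21 for Ece1 and -0.44 to 0.21 for Ece2 at P38, and -0.62 to 0.046 for Ednrb, -0.0035 to 0.096 for Ece1 and -0.080 to 0.23 for Ece2 over all cKO mice.

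No paired analysis was possible because the mice are numbered 1 to 12 without repeats across the groups. Depth limited Edn3 at P34, where it had 7 to 18 counts.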
